A study of Homo sapiens with 12 samples.

Results

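A set of 8 genes whose products are known from glial cells and myelin, S100B, MBP, PMP22, GFAP, CRYAB, APOD, CDH19, and GPM6B, were followed in melanoma cells exposed to the RAF inhibitor vemurafenib. They were picked by symbol, with earlier results of these data known. All 8 were found among the 23273 genes listed for each of the cell lines. RNA was measured in 12 libraries of COLO858 and MMACSF, which are established melanoma cell lines with a mutant BRAF kinase. In each line, 2 replicate libraries came from cells given the vehicle DMSO, 2 from cells after 24 h in 0.2 μM vemurafenib, and 2 from cells after 48 h at the same dose. The labels give no time for DMSO, so both drug times were set against the same pair of DMSO libraries. The lines were grown in different media and seeded at different density, and these differences cannot be told apart from the difference between lines. The labels speak of plates seeded in 2 replicates, so p-values measure the spread between such plates of 1 line.

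Melanocytes and Schwann cells, the glia of peripheral nerves, both arise from the neural crest, and melanoma cells can express genes of either. Schwann cells and oligodendrocytes wrap axons in myelin, a stack of membrane held together by a small set of abundant proteins. MBP compacts the cytoplasmic face of these membranes, PMP22 is a tetraspan protein of peripheral myelin, and GPM6B is a tetraspan proteolipid of neurons and glia. S100B is a calcium-binding protein of glia that is also used to mark melanocytic tumors. GFAP is the intermediate filament of astrocytes and non-myelinating Schwann cells, and CDH19 is a cadherin of the Schwann cell lineage. CRYAB is a small heat shock protein that is abundant in oligodendrocytes and lens, and APOD is a secreted lipid carrier made by glia and fibroblasts.

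In COLO858, expression of 6 of the 8 genes rose within 48 h of vemurafenib, and the rise ranged from 3.19-fold for APOD to 222-fold for CRYAB. Of all genes tested in COLO858, 4.74% rose and 4.73% fell at 48 h. In MMACSF, MBP, PMP22, CRYAB, and APOD rose by 1.71-fold to 4.07-fold at 48 h, when 3.42% of all genes tested rose and 5.41% fell. S100B and GPM6B, which rose in COLO858, did not pass the test in MMACSF. CDH19 passed the test in neither line, although a block for replicate number turned that call in both, and GFAP was at or near 0 throughout. The values are FPKM, in which the fragments of a gene are divided by transcript length and by the number of mapped fragments. CRYAB and MBP started from means of 0.265 and 0.575 FPKM under DMSO in COLO858, so their ratios there rest on a very low base. Changes were tested with limma on log2(FPKM + 1) with an adjusted p below 0.01 as the threshold, and each log2 fold change below is on that scale. A rise in these bulk samples can come from more cells that express a gene or from more RNA per cell, and the 2 cannot be told apart.

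**Figure D1:**
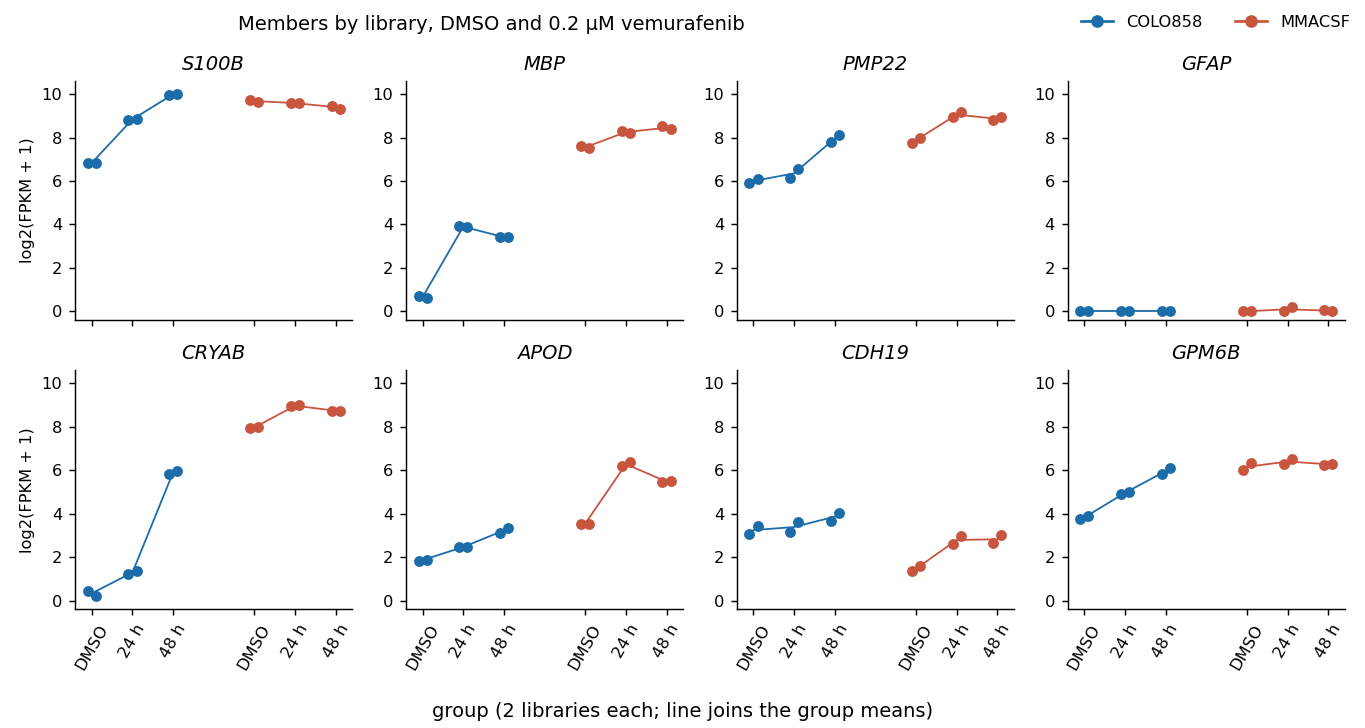
Expression of the 8 genes in each of the 12 libraries, as log2(FPKM + 1) on the vertical axis, with groups of COLO858 (blue) and MMACSF (red) on the horizontal axis. Points are libraries and lines join the group means. GFAP stays on the floor in both lines. CRYAB in COLO858 lies slightly above DMSO at 24 h, with 1.36 and 1.53 FPKM, and reaches 56.3 and 61.2 FPKM at 48 h. S100B reaches 996 and 1038 FPKM in the 48-h libraries of COLO858 from 113 FPKM under DMSO.

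Read depth is not given with FPKM, so the precision of a single library is unknown, and the sum of FPKM, which is not a depth, was 670310 to 1013040 per library. Genes with symbols of small RNAs took 20.8% to 50.6% of that sum. Between 11679 and 11972 genes reached 1 FPKM in a library. Without the small RNA genes, the correlation between replicates of a group was 0.989 to 0.993, and both 24-h libraries of MMACSF were nearer to the 48-h library of the same replicate number than to each other.

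All 8 genes lie on the minus strand of their chromosome. In GRCh37, the build of the mapping, S100B spans 21:48018517-48025121 and MBP spans 18:74690783-74845639. PMP22 spans 17:15133090-15175609, GFAP 17:42980527-42994305, and CRYAB 11:111779288-111794446. APOD spans 3:195295576-195310904, CDH19 18:64168320-64271375, and GPM6B X:13789058-13956757. CRYAB overlaps HSPB2 and C11orf52, GPM6B overlaps OFD1, and GFAP overlaps CCDC103, each on the opposite strand. HSPB2 was at 0 to 0.137 FPKM in COLO858 and at 0 to 1.5 FPKM in MMACSF, and C11orf52 did not exceed 0.159 FPKM in any library. OFD1 was at 3.56 to 9.64 FPKM in COLO858 and at 10.9 to 20.8 FPKM in MMACSF. CCDC103 was at 0.996 to 2.63 FPKM in COLO858 and at 5.56 to 7.59 FPKM in MMACSF. The libraries were stranded, but whether the counting used strand is not stated.

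Upstream windows of 250 bases were held by the RefSeq table (GRCh38.p14) for 4 of the 8 genes, with 8 windows in all. The glial and melanocytic regulator SOX10 was expressed in both lines, and these windows were searched on both strands for the SOX core letters ACAAAG and ACAATG. This search was chosen with the changes in COLO858 known. Of the genes that rose in COLO858, MBP, PMP22, and GPM6B have windows, and S100B, CRYAB, and APOD have none. CDH19, the other gene with a window, did not pass the test. A shared regulator was not tested. At least 1 core was found in 4 of the 8 windows, and each of the 4 genes had a window with one. These genes have up to 3 windows each, and the share per gene over all genes was not computed. Of all 35116 windows in the table, 21.2% held either core, with 13.7% for ACAAAG and 9.29% for ACAATG. The stretches that lie outside annotated exons are printed 5′ to 3′, with the core in capitals, to give the sequence around each match. The window of CDH19 held ACAAAG 204 bases upstream of the start, the first window of GPM6B held it at 124 bases, and the first window of PMP22 at 118 bases. The first window of MBP held no core, and its second window, which lies inside annotated exons and is not shown, held ACAATG at 228 and 192 bases. The stretch of CDH19 is 18:66604139-66604340, that of GPM6B X:13938639-13938888, that of PMP22 17:15265327-15265455, and that of MBP 18:77132845-77133033, all on the minus strand.
CDH19: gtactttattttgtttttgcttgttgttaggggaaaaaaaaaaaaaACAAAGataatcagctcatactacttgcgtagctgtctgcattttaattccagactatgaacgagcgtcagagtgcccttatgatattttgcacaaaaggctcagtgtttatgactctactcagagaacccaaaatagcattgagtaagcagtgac
GPM6B: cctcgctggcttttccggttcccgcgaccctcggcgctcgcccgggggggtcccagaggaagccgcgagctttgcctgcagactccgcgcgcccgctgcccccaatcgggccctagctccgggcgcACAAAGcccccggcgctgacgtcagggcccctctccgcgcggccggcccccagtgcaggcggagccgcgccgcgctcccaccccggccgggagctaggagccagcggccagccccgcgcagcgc
PMP22: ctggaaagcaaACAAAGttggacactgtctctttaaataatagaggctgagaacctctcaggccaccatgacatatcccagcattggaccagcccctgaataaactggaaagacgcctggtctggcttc
MBP: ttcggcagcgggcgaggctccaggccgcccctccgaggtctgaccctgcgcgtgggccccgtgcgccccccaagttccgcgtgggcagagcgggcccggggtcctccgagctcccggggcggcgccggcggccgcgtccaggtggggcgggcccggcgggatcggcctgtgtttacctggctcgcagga
The GPM6B and MBP stretches are rich in G and C, at 78.4% and 78.8%, whereas those of CDH19 and PMP22 hold 36.6% and 48.1%. A match of 6 letters is a description of the sequence and not a site of binding. Other motifs searched on both strands were found in no window of these 4 genes. They were CATGTG, an E-box that MITF can bind, held by 9.42% of all windows, TGANTCA, the AP-1 element, by 6.57%, GTGGGCG, an element of the EGR factors, by 8.53%, and the TATA box letters TATAAA by 10.7%.

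To ask how the myelin proteins among the 8 genes responded, MBP, PMP22, and GPM6B were examined first. MBP was at 0.639 and 0.511 FPKM in the DMSO libraries of COLO858, at 14 and 13.8 FPKM after 24 h, and at 9.63 and 9.66 FPKM after 48 h. Both drug times lay above DMSO with no overlap, and the 24-h libraries were the highest. The log2 fold change was 3.24 (SE 0.13, limma adjusted p = 0.000565) at 24 h and 2.76 (SE 0.13, adjusted p = 0.000552) at 48 h. The difference of -0.48 between 48 h and 24 h did not pass the test (limma adjusted p = 0.120). In MMACSF, MBP was already at 192 and 181 FPKM under DMSO, at 314 and 294 FPKM at 24 h, and at 367 and 331 FPKM at 48 h. The groups did not overlap, and the rise of 0.90 (SE 0.11) at 48 h passed the test (limma adjusted p = 0.00580), whereas that of 0.70 at 24 h did not (adjusted p = 0.0135). Among the genes that rose in COLO858, MBP ranked 24 of 522 by log2 fold change at 24 h and 77 of 602 at 48 h.

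PMP22, whose dosage sets the integrity of peripheral myelin, rose at 48 h in both lines and at 24 h passed the test in MMACSF alone, although the difference between the lines at 24 h, -0.83, did not pass the test (limma adjusted p = 0.0936). COLO858 had 58.8 and 67.4 FPKM under DMSO, 69.3 and 93.4 FPKM at 24 h, and 222 and 276 FPKM at 48 h. The 24-h libraries stood only slightly above DMSO, and the 48-h libraries were far above both. The log2 fold change was 0.35 (SE 0.20, limma adjusted p = 0.261) at 24 h and 1.96 (SE 0.20, adjusted p = 0.00378) at 48 h. In MMACSF, PMP22 was at 216 and 255 FPKM under DMSO, at 488 and 576 FPKM at 24 h, and at 443 and 484 FPKM at 48 h. Both drug times lay above DMSO, with log2 fold changes of 1.17 (SE 0.15, limma adjusted p = 0.00720) and 0.98 (SE 0.15, adjusted p = 0.00922).

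GPM6B rose stepwise in COLO858. Its libraries were at 12.7 and 13.7 FPKM under DMSO, at 28.9 and 31.3 FPKM at 24 h, and at 55.4 and 67.4 FPKM at 48 h. No group overlapped another, and the log2 fold change against DMSO was 1.13 (SE 0.15, limma adjusted p = 0.00688) at 24 h and 2.13 (SE 0.15, adjusted p = 0.00134) at 48 h. The step from 24 h to 48 h was 1.00 and did not pass the test (limma adjusted p = 0.0270). In MMACSF, GPM6B was at 63.0 and 78.4 FPKM under DMSO, at 76.5 and 90.9 FPKM at 24 h, and at 75.2 and 77.8 FPKM at 48 h. These groups overlapped, and the log2 fold change was 0.24 at 24 h and 0.12 at 48 h (limma adjusted p = 0.314 and 0.609).

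Of the glial lineage markers, S100B was the most abundant of the 8 genes in every group. COLO858 had 113 FPKM in both DMSO libraries, 444 and 468 FPKM at 24 h, and 996 and 1038 FPKM at 48 h. The 3 groups were far apart relative to their replicate spread. The log2 fold change was 2.00 (SE 0.10, limma adjusted p = 0.000784) at 24 h, 3.16 (adjusted p = 0.000262) at 48 h, and 1.16 (adjusted p = 0.00749) between 24 h and 48 h. In MMACSF, S100B was at 857 and 782 FPKM under DMSO, at 770 and 765 FPKM at 24 h, and at 706 and 640 FPKM at 48 h. The drug-treated libraries lay slightly below DMSO, and the differences of -0.093 and -0.28 did not pass the test (limma adjusted p = 0.599 and 0.129). Under DMSO, 96.4% of the listed genes had a lower mean than S100B in COLO858, and 99.6% did so at 48 h.

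GFAP was listed at 0 in 10 of the 12 libraries. The exceptions were MMACSF libraries, with 0.141 FPKM in replicate 2 at 24 h and 0.0371 FPKM in replicate 1 at 48 h. CCDC103, the overlapping gene, was higher in all libraries of MMACSF than in those of COLO858, and its part in these GFAP values was not tested. GFAP did not reach the minimum of 1 FPKM in any group mean and was not tested, so 7 of the 8 genes entered the tests in each line.

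CDH19 was expressed at a low level in both lines. In COLO858 it was at 7.36 and 9.75 FPKM under DMSO, at 8.02 and 11.1 FPKM at 24 h, and at 11.8 and 15.6 FPKM at 48 h. The DMSO and 24-h libraries overlapped, and the log2 fold change of 0.62 (SE 0.24) at 48 h did not pass the test (limma adjusted p = 0.122). In MMACSF it was at 1.53 and 2.02 FPKM under DMSO, at 5.14 and 6.78 FPKM at 24 h, and at 5.21 and 7.05 FPKM at 48 h. All 4 drug-treated MMACSF libraries lay above both DMSO libraries, with log2 fold changes of 1.32 (SE 0.22) and 1.35 (SE 0.22), which missed the threshold (limma adjusted p = 0.0145 and 0.0111). With the replicate number as a block, the changes at 48 h passed in COLO858 (limma adjusted p = 0.00130) and in MMACSF (adjusted p = 0.00117), as did 20.4% and 14.8% of all genes in that direction. At the threshold of 0.01 and with all libraries kept, the 48-h change was called in 1 of 9 alternative fits in COLO858 and in 4 of 8 in MMACSF. Replicate 2 was above replicate 1 in 6 of 6 groups for CDH19, and the same held for PMP22 and GPM6B.

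CRYAB showed the largest change of the 8 genes. In COLO858 it was at 0.366 and 0.164 FPKM under DMSO, at 1.36 and 1.53 FPKM at 24 h, and at 56.3 and 61.2 FPKM at 48 h. The 24-h libraries lay above DMSO with no overlap, and the 48-h libraries stood far above both, at 40.6 times the 24-h mean. The log2 fold change against DMSO was 0.96 (SE 0.15, limma adjusted p = 0.0119) at 24 h, which missed the threshold, and 5.57 (SE 0.15, adjusted p = 0.000205) at 48 h. Because the DMSO mean was 0.265 FPKM, the 222-fold ratio of means rests on a very low base. For the same reason the 24-h value depended on the constant added, and with nothing added it was 2.56 and passed the test. Between 24 h and 48 h the log2 fold change was 4.61 (limma adjusted p = 0.000640). Among the genes that rose, CRYAB ranked 7 of 602 for 48 h against DMSO and 7 of 148 for 48 h against 24 h. MMACSF started high, with 248 and 251 FPKM under DMSO, and had 489 and 512 FPKM at 24 h and 426 and 425 FPKM at 48 h. Both drug times lay above DMSO, with log2 fold changes of 1.00 (SE 0.10, limma adjusted p = 0.00399) and 0.77 (SE 0.10, adjusted p = 0.00617).

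APOD rose in both lines, and at 24 h the rise was larger in MMACSF. In COLO858 it was at 2.58 and 2.68 FPKM under DMSO, at 4.55 and 4.50 FPKM at 24 h, and at 7.66 and 9.15 FPKM at 48 h. The groups did not overlap, and the log2 fold change was 0.61 (SE 0.15, limma adjusted p = 0.0369) at 24 h and 1.37 (SE 0.15, adjusted p = 0.00416) at 48 h. In MMACSF it was at 10.7 FPKM in both DMSO libraries, at 72.1 and 81.8 FPKM at 24 h, and at 42.9 and 43.8 FPKM at 48 h. The 24-h libraries were the highest. The log2 fold change was 2.74 (SE 0.12, limma adjusted p = 0.000565) at 24 h and 1.93 (SE 0.12, adjusted p = 0.000853) at 48 h, which ranked APOD 11 of 280 and 46 of 431 among the genes that rose. The difference of -0.81 between 48 h and 24 h did not pass the test (adjusted p = 0.104).

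**Figure D2:**
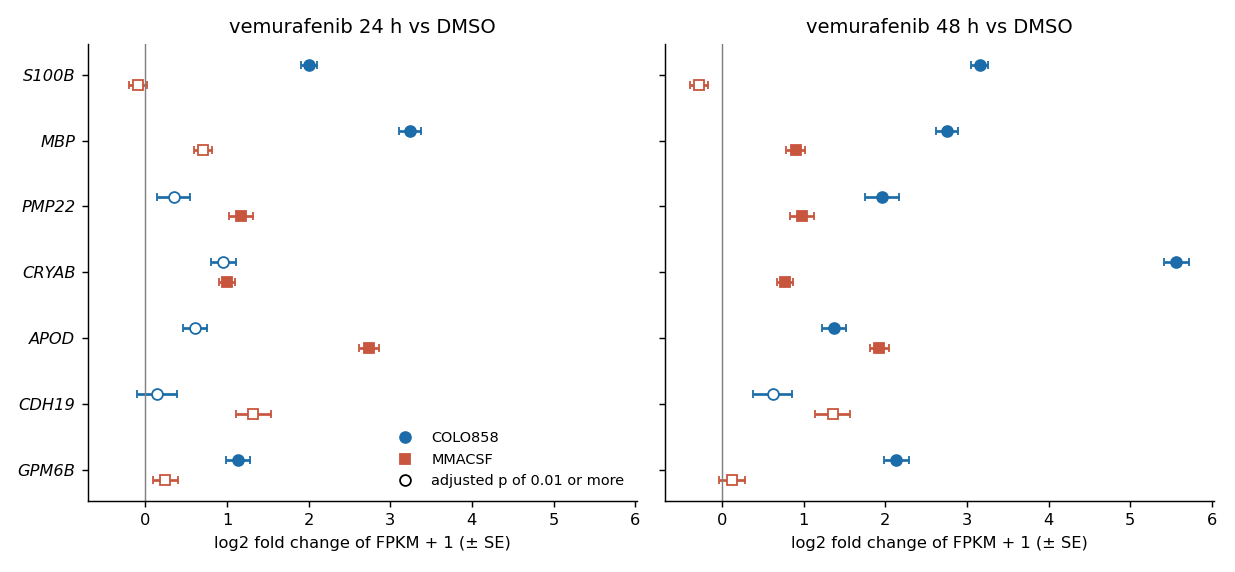
Log2 fold change of FPKM + 1 against DMSO on the horizontal axis for the 7 genes tested, after 24 h (left) and 48 h (right), in COLO858 (circles) and MMACSF (squares). Bars are limma standard errors, and open symbols have an adjusted p of 0.01 or more. At 48 h the values for S100B are 3.16 and -0.28, those for CRYAB 5.57 and 0.77, and those for APOD 1.37 and 1.93.

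Counted over the 7 genes tested, S100B, MBP, and GPM6B rose in COLO858 at 24 h, which makes 3, and 6 rose at 48 h. Of all 12696 genes tested in COLO858, 4.11% rose and 5.71% fell at 24 h, and 4.74% rose and 4.73% fell at 48 h. The members were chosen with earlier results of these data known, so their counts and medians beside those of all genes are a description. None of the 7 fell. MBP and CRYAB were under 1 FPKM under DMSO in COLO858 and reached the minimum through the drug-treated groups alone. The middle gene of the 7 changed by 0.96 at 24 h and by 2.13 at 48 h on the log2 scale, beside medians of 0.057 and -0.014 over all genes tested. From 24 h to 48 h, S100B and CRYAB rose, against 1.17% of all genes, with 0.213% that fell. In MMACSF, PMP22, CRYAB, and APOD rose at 24 h, and with MBP 4 genes rose at 48 h. Of the 12599 genes tested in MMACSF, 2.22% rose and 3.6% fell at 24 h, and 3.42% rose and 5.41% fell at 48 h. The median log2 fold change of the 7 genes was 1.00 at 24 h and 0.90 at 48 h, beside 0.073 and 0.065 over all genes tested. Between 24 h and 48 h in MMACSF, limma called 0 of the 7, and 1, APOD, had an unadjusted p under 0.05. Of all genes, 0.111% rose and 0.111% fell in that comparison.

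Several of these calls were lost in fits with 1 library fewer, which leave 1 library in a group and less data for the spread. A lost call therefore does not show that a single library carried it. For CRYAB at 24 h in MMACSF the call was lost whichever library was left out, while the log2 fold change stayed at 0.97 to 1.03. When each library of a line was left out in turn, the calls of S100B, MBP, and CRYAB at 48 h in COLO858 held in 6 of 6 fits. Those of GPM6B and PMP22 held in 2 of 6 and were lost without any 1 of the DMSO or 48-h libraries, with adjusted p up to 0.0151 and 0.0274, and that of APOD held in 0 of 6, with adjusted p up to 0.0328. At 24 h in COLO858, MBP held in 6 of 6 fits, S100B was lost without replicate 2 of the 24-h group (adjusted p = 0.0104), and GPM6B held in 0 of 6, with adjusted p up to 0.0530. From 24 h to 48 h, CRYAB held in 6 of 6 and S100B in 0 of 6, with adjusted p up to 0.0704. In MMACSF, the call of APOD at 24 h held in 6 of 6 fits, and those of PMP22 and CRYAB in 0 of 6, with adjusted p up to 0.0503 and 0.0379. At 48 h APOD held in 2 of 6 and was lost without any 1 of the DMSO or 48-h libraries (limma adjusted p up to 0.0153). MBP, PMP22, and CRYAB held in 0 of 6, with adjusted p up to 0.0496, 0.0675, and 0.0508. All of these called changes kept their sign in each fit.

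To ask whether the lines differed in their response, the change in COLO858 minus that in MMACSF was tested over all 12 libraries. At 24 h, S100B rose more in COLO858 by 2.10 (limma adjusted p = 8.79e-05) and MBP by 2.54 (adjusted p = 5.82e-05) on the log2 scale, and APOD rose less, with a difference of -2.13 (adjusted p = 0.000276). At 48 h, the difference was 3.44 for S100B (limma adjusted p = 3.99e-06), 4.80 for CRYAB (adjusted p = 2.26e-06), 2.01 for GPM6B (adjusted p = 0.000537), and 1.86 for MBP (adjusted p = 9.43e-05). MBP started from 0.575 FPKM in COLO858, and with nothing added to FPKM its differences were 3.90 at 24 h and 3.17 at 48 h. The differences of 0.98 for PMP22, -0.56 for APOD, and -0.73 for CDH19 at 48 h did not pass the test (limma adjusted p = 0.0356, 0.0508, and 0.200). Of all 13595 genes tested, 1.78% had a larger change in COLO858 and 1.93% a smaller one at 24 h, and 4.19% and 3.3% at 48 h. These calls held in 12 of 12 fits with 1 library left out.

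The lines also entered the experiment at different levels, although whether their tables were scaled together is not stated. Under DMSO, S100B, MBP, PMP22, CRYAB, APOD, and GPM6B had a higher mean FPKM in MMACSF, and CDH19 had a higher one in COLO858. For S100B the 48-h mean of COLO858, 1017 FPKM, was of the order of the 819 FPKM of MMACSF under DMSO, and for PMP22 249 FPKM stood beside 235 FPKM. For GPM6B, 61.4 FPKM stood beside 70.7 FPKM. MBP and CRYAB reached 9.65 and 58.8 FPKM in COLO858 at 48 h and stayed below the 186 and 250 FPKM of DMSO-treated MMACSF. Summed over the 8 genes, the libraries ranged from 195 to 1477 FPKM in COLO858 and from 1560 to 2327 FPKM in MMACSF.

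A list of 22 other myelin genes moved in both directions, with 9 of them tested in each line. In COLO858, 2 rose and 2 fell at 24 h, and 4 rose and 3 fell at 48 h. In MMACSF, 2 rose and 2 fell at both times. Of all genes tested in COLO858, 4.11% rose and 5.71% fell at 24 h, and 4.74% and 4.73% at 48 h. In MMACSF these shares were 2.22% and 3.6% at 24 h, and 3.42% and 5.41% at 48 h. The median log2 fold change at 48 h was -0.067 in COLO858 and 0.25 in MMACSF. PMP2, a fatty acid binding protein of peripheral myelin, was at 0.689 and 1.17 FPKM under DMSO in COLO858, at 5.25 and 7.7 FPKM at 24 h, and at 25.8 and 48.1 FPKM at 48 h. The 3 groups did not overlap, and the log2 fold change was 1.95 (SE 0.35, limma adjusted p = 0.0157) at 24 h, which missed the threshold, and 4.25 (SE 0.35, adjusted p = 0.00196) at 48 h. In MMACSF, PMP2 was at 0.960 and 1.56 FPKM under DMSO and at 1.24 and 1.53 FPKM at 48 h, and these groups overlapped, with a log2 fold change of 0.086 (limma adjusted p = 0.800). At 48 h the change in COLO858 exceeded that in MMACSF by 4.16 on the log2 scale (limma adjusted p = 0.000551).

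GJB1, a gap junction protein of Schwann cells and oligodendrocytes, fell in both lines. It was at 40.4 and 32.5 FPKM under DMSO in COLO858, at 5.86 and 5.20 FPKM at 24 h, and at 0.523 and 0.181 FPKM at 48 h. In MMACSF it was at 53.5 and 48.9 FPKM under DMSO, at 10.1 and 8.37 FPKM at 24 h, and at 11.3 and 8.61 FPKM at 48 h. COLO858 went on falling between 24 h and 48 h, by 2.28 on the log2 scale (limma adjusted p = 0.00733), whereas the 24-h and 48-h libraries of MMACSF overlapped. The log2 fold change at 48 h was -4.79 (SE 0.20, limma adjusted p = 0.000415) in COLO858 and -2.26 (SE 0.18, adjusted p = 0.00169) in MMACSF, and the difference of -2.53 passed the test (adjusted p = 0.000567).

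The other myelin genes called at 48 h are named here after their values were seen. In COLO858, ASPA, which deacetylates N-acetylaspartate, rose by 1.96, GAL3ST1, which sulfates galactosylceramide, by 1.33, and CNP, an enzyme of non-compact myelin, by 1.10 on the log2 scale. ASPA went from a mean of 0.0699 FPKM to 3.14 FPKM and GAL3ST1 from 0.0847 to 1.74 FPKM. With PMP2 they make 3 of the 4 that rose, and these 3 reached the minimum of 1 FPKM through the drug-treated groups alone. MAG, an adhesion protein at the axon, and PLLP, a tetraspan proteolipid, fell by 2.18 and 1.82 on the log2 scale. In MMACSF, ASPA and MAL, a myelin proteolipid, rose by 1.82 and 1.70, and PLLP fell by 2.07 on the log2 scale. In the test between lines at 48 h, 2 of 11 genes were called higher, PMP2 and GAL3ST1, and 2 lower, GJB1 and MAG. Of all genes in that test, 4.19% were called higher and 3.3% lower. MAG and GAL3ST1 did not exceed group means of 0.038 and 0.215 FPKM in MMACSF, so that their differences restate the changes in COLO858. GPM6A, a relative of GPM6B, did not exceed a group mean of 1.22 FPKM in either line.

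**Figure D3:**
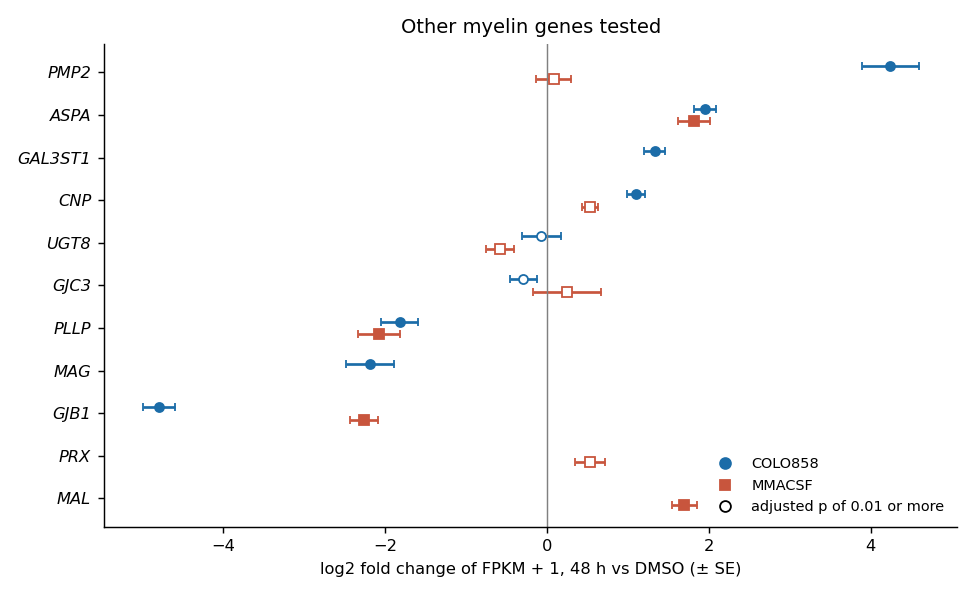
Log2 fold change of FPKM + 1 at 48 h against DMSO on the horizontal axis for the myelin genes beyond the 8 that were tested in at least 1 line, in COLO858 (circles) and MMACSF (squares). Bars are limma standard errors, and open symbols have an adjusted p of 0.01 or more. PMP2 lies farthest to the right at 4.25 in COLO858, and GJB1 farthest to the left at -4.79.

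Regulators of the glial lineage were read from a list of 23 genes, of which 17 were tested in COLO858 and 13 in MMACSF. At 48 h, 3 rose and 3 fell in COLO858, and 2 rose and 0 fell in MMACSF. Over all genes tested at 48 h, 4.74% rose and 4.73% fell in COLO858, and 3.42% and 5.41% in MMACSF. ZEB2, a repressor needed for Schwann cell maturation, was at 8.71 and 12 FPKM under DMSO and at 50.0 and 63.7 FPKM at 48 h in COLO858, and at 13.4 and 17.0 FPKM and 36.5 and 48.5 FPKM in MMACSF. It rose by 2.35 (SE 0.22, limma adjusted p = 0.00281) and by 1.41 (SE 0.21, adjusted p = 0.00883) on the log2 scale. OLIG2, a factor of the oligodendrocyte lineage, fell in COLO858 from a mean of 5.53 to 0.918 FPKM, with a log2 fold change of -1.77 (SE 0.19, limma adjusted p = 0.00405). SOX10, the shared regulator of Schwann cells and melanocytes, was at 227 and 160 FPKM under DMSO and at 453 and 323 FPKM at 48 h in COLO858. Its log2 fold change of 1.00 (SE 0.27) did not pass the test (limma adjusted p = 0.0491), nor did the 0.59 of MMACSF (adjusted p = 0.125). EGR2, which drives the myelin program in Schwann cells, had group means of 0.202 to 0.476 FPKM in COLO858 and of 0.247 to 1.44 FPKM in MMACSF.

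Astrocyte and glial markers gave a mixed picture. Of 14 genes on that list, 9 were tested in COLO858, where 2 rose and 1 fell at 48 h, and 7 in MMACSF, where 0 rose and 1 fell. PTPRZ1, a receptor phosphatase of glial progenitors, rose in COLO858 from 2.93 and 4.18 FPKM to 34.4 and 42.9 FPKM (log2 fold change 3.13, SE 0.25, limma adjusted p = 0.00180). ALDOC, an aldolase of astrocytes, fell by 1.28 on the log2 scale there. The astrocyte water channel AQP4 did not exceed a group mean of 0.298 FPKM in either line, whereas other genes of the list were expressed. GLUL had group means of 23.3 to 41.4 FPKM in COLO858 and 60.1 to 120 FPKM in MMACSF, and NDRG2 of 15.4 to 50.4 FPKM over both lines. Under DMSO, 9 of the 14 genes reached a mean of 1 FPKM in COLO858 and 7 in MMACSF. NES, an intermediate filament of progenitor cells, moved in opposite directions, with 1.02 (limma adjusted p = 0.00460) in COLO858 and -1.22 (adjusted p = 0.00393) in MMACSF, and the difference of 2.24 passed the test (adjusted p = 4.45e-05). Of the filament genes related to GFAP, NEFL fell by 2.05 on the log2 scale in COLO858, from a mean of 118 to 27.7 FPKM. VIM had group means of 1289 to 3553 FPKM and SYNM was at 4.98 to 35.4 FPKM, and neither passed the test at 48 h in either line.

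The S100 and PMP22 families did not move as blocks in COLO858. Of 18 other S100 genes, 9 were tested in each line. At 48 h in COLO858, where S100B rose by 3.16, 1 rose and 5 fell, with a median log2 fold change of -0.91. Of all genes tested there, 4.74% rose and 4.73% fell. S100A16 was at 112 FPKM in both DMSO libraries and at 14.6 and 14.4 FPKM at 48 h, a log2 fold change of -2.87 (SE 0.12, limma adjusted p = 0.000415). S100A2 and S100A4 fell by 2.83 and 1.93 on the log2 scale. S100A10, the partner of annexin A2, rose from 98.4 and 76.0 FPKM to 293 and 239 FPKM, by 1.60 (SE 0.21, limma adjusted p = 0.00656). In MMACSF, 0 of the 9 rose at 48 h and 3 fell, among them S100A6, with a log2 fold change of -1.83, and S100A11, with -1.08. Over all genes tested in MMACSF, 3.42% rose and 5.41% fell. S100A1 and S100A13, with log2 fold changes of 0.55 and -0.53 in COLO858, did not pass the test in either line.

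EMP3, a relative of PMP22, was at 172 and 153 FPKM under DMSO and at 43.9 and 46.4 FPKM at 48 h in COLO858, and fell by 1.82 on the log2 scale (limma adjusted p = 0.00156) while PMP22 rose. EMP1 had log2 fold changes of 1.29 in COLO858 and 0.65 in MMACSF that did not pass the test (limma adjusted p = 0.0229 and 0.0385). Among the small heat shock proteins related to CRYAB, HSPB1 was at 533 and 291 FPKM under DMSO and at 1164 and 664 FPKM at 48 h in COLO858, and its log2 fold change of 1.16 (SE 0.48) did not pass the test (limma adjusted p = 0.141). HSPB8 was at 56.5 to 84.4 FPKM in MMACSF and did not exceed 0.465 FPKM in COLO858. Of the type II cadherins beside CDH19, CDH6 rose in COLO858 from 1.27 and 1.78 FPKM to 9.39 and 13.3 FPKM (log2 fold change 2.28, limma adjusted p = 0.00394). All 4 of these cadherins tested in COLO858 had a positive log2 fold change at 48 h, and only CDH6 passed the test. Of the 11 other lipocalins beside APOD, 1 was tested in COLO858 and 0 in MMACSF, and none passed the test at 48 h.

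**Figure D4:**
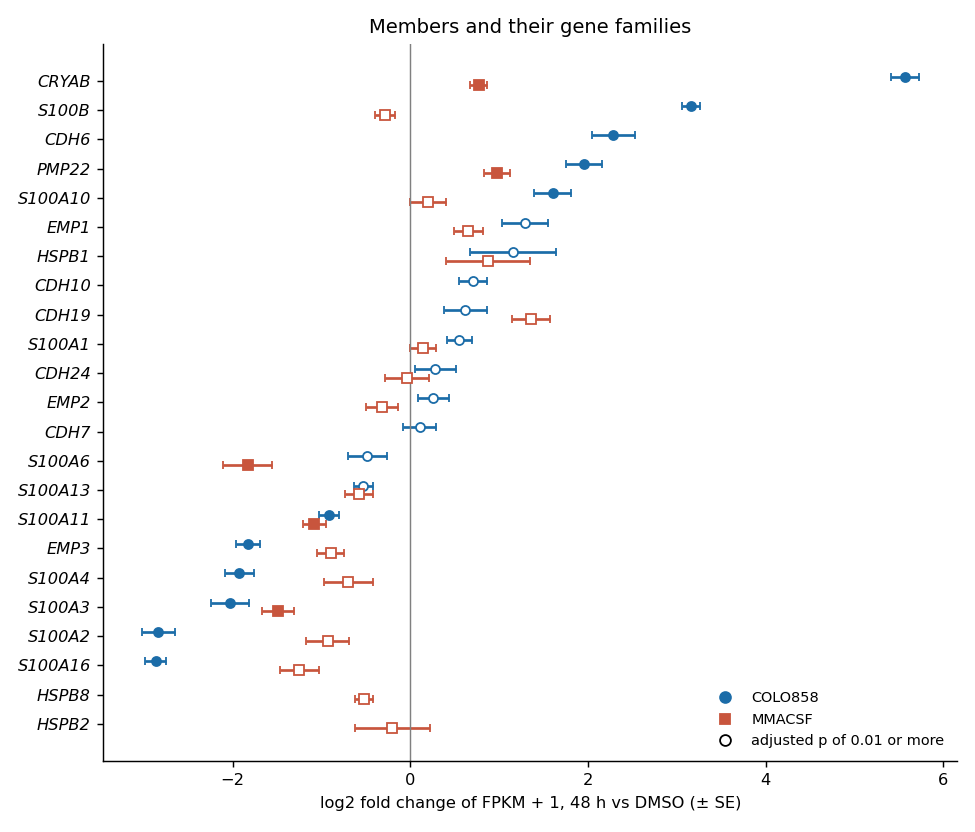
Log2 fold change of FPKM + 1 at 48 h against DMSO on the horizontal axis for S100B, PMP22, CRYAB, and CDH19 and the tested genes of their families, in COLO858 (circles) and MMACSF (squares). Bars are limma standard errors, and open symbols have an adjusted p of 0.01 or more. In COLO858, S100B at 3.16 and S100A16 at -2.87 lie on opposite sides of 0, as do PMP22 at 1.96 and EMP3 at -1.82.

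Markers of the labeled cell type and of other cells were read beside these results. Of 7 melanocyte markers, MITF, PMEL, DCT, TYRP1, and SOX10 were expressed in both lines. MLANA did not exceed 0.725 FPKM and TYR 1.21 FPKM in COLO858, whereas in MMACSF MLANA was at 962 to 2312 FPKM and TYR at 178 to 402 FPKM. At 48 h, 3 of the 6 tested in COLO858 rose and 0 fell, beside 4.74% and 4.73% of all genes tested in COLO858. DCT and TYRP1, enzymes of pigment synthesis, rose by 3.01 and 1.95 on the log2 scale, and PMEL, of the melanosome matrix, by 2.96. MITF and TYR had log2 fold changes of -0.0040 and -0.21 there and did not pass the test (limma adjusted p = 0.997 and 0.358). In MMACSF, 3 of 7 rose and 0 fell, with log2 fold changes of 1.17 for DCT, 1.04 for MLANA, and 1.01 for TYR. Over all genes tested in MMACSF, 3.42% rose and 5.41% fell at 48 h. Over 11 markers of keratinocytes, fibroblasts, endothelium, and leukocytes, the sum was 27.4 to 42.2 FPKM in COLO858 and 97.4 to 170 FPKM in MMACSF. KRT5 and CD3E were at 0 in each library, whereas other markers of this list were expressed. LUM, a fibroblast marker, had group means of 6.78 to 20.5 FPKM in COLO858 and 22.2 to 62.8 FPKM in MMACSF. KRT10 had group means of 6.81 to 9.53 FPKM over both lines, and CD68 of 53.4 to 82.0 FPKM in MMACSF. At 48 h, 0 of 4 rose and 1 fell in COLO858, CD68, a lysosomal gene used to mark macrophages, by 1.37 on the log2 scale, and limma called 0 of 4 in MMACSF. Over 6 neuron markers the sum was 6.37 to 41.2 FPKM in COLO858 and 7.33 to 10.3 FPKM in MMACSF, and 1 of the 3 tested in COLO858, GAD1, fell by 2.70 on the log2 scale. The part of these markers in the changes above was not tested.

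Genes whose pattern was most like that of each member were sought among 11699 genes tested in both lines, by Pearson's r of log2(FPKM + 1) minus the DMSO mean of the same line over the 12 libraries. The libraries share lines, replicate numbers, and DMSO controls, so r is given as a description. S100B was closest to TUBA1A, a tubulin (r = 0.996), MYL6 (0.993), and RXRG, a retinoid receptor (0.992). MBP was closest to BEST1 (r = 0.995), FAM63A (0.991), and CTNS, the lysosomal cystine carrier (0.986). PMP22 was closest to SORBS2 (r = 0.990), C1orf198 (0.983), and the kinase FYN (0.979). CRYAB was closest to SAMD4A (r = 0.982), the microfibril gene FBN1 (0.978), and the collagen COL5A3 (0.976). APOD had its highest r with SVIL (0.970), ANTXR2 (0.959), and LOH12CR2 (0.956). CDH19 was closest to PQLC3 (r = 0.988), GNG2 (0.987), and DPYSL2 (0.982), and GPM6B to CTNNA1, an α-catenin (0.995), LAMC1, a laminin (0.993), and CAV1 (0.993). No member was among the 3 genes closest to another. Within COLO858, r between members ranged from 0.448 for MBP and CDH19 to 0.993 for APOD and GPM6B. Within MMACSF it ranged from -0.758 for S100B and CDH19 to 0.998 for CRYAB and APOD.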

How the data were processed

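RNA was taken from 12 plates of COLO858 and MMACSF, and stranded mRNA libraries were sequenced as single reads. The authors mapped reads to hg19 with TopHat and deposited FPKM from Cuffdiff, 1 table per line. Versions, the gene annotation, the strand setting, and library scaling are not given in the sources used here. All sample columns were used.

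Each line was fitted with limma 3.58.1 in R 4.3.3 as 3 groups on log2(FPKM + 1), with a mean-variance trend, over genes that reached a mean of 1 FPKM in any group. Line differences were fitted as an interaction over 6 groups. All p-values are two-sided, adjusted by Benjamini-Hochberg over all genes tested, with a threshold of 0.01. On simulated data, 200 genes were raised by 2 on the log2 scale for 48 h against DMSO. Of these, 165 were recovered in COLO858, 185 in MMACSF, and 135 for the line difference, with 5, 3, and 1 false calls. The simulated errors were independent between libraries, whereas same-numbered libraries of the data deviated together, so recovery in the data can differ. The members and lists were chosen with earlier results of these data known. Genes named were the members, the 2 called genes of each list with the largest change at 48 h, family members at 10 FPKM or more, and the 3 closest genes by r. Outside this rule, SOX10, EGR2, AQP4, GLUL, NDRG2, GPM6A, the other called myelin genes, and overlapping genes were named after their values were seen. So were the markers MITF, MLANA, TYR, TYRP1, KRT5, KRT10, LUM, and CD3E. Some genes of these lists are not reported here. Alternatives were 0.1 FPKM or nothing added, no minimum or 10 FPKM, a replicate block, 2 rescalings, no trend, only the libraries compared, a threshold of 0.05, and each library left out. Sequences and coordinates are from RefSeq (GRCh38.p14) and GENCODE v44 lifted to GRCh37, where 83.8% of symbols were found. Among genes under 0.3 FPKM, whole-read steps were clear between replicate 2 libraries, where 1 read was worth 1.33 and 1.09 times the DMSO value at 24 h and 48 h in COLO858, and 2.68 and 1.39 times in MMACSF. Weaker steps were seen between the DMSO and 48-h libraries of replicate 1 in each line. Recovery of counts was not attempted for any library.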

Additional observations from a re-analysis of the deposited data

Results flagged for a closer look

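The results below stand out because the change against DMSO differed between COLO858 and MMACSF in limma's interaction test over 12 libraries. S100B differed by 2.10 at 24 h and by 3.44 at 48 h on the log2 scale, and rose in COLO858 while its MMACSF values of -0.093 and -0.28 did not pass the test. MBP differed by 2.54 at 24 h and 1.86 at 48 h, and its 48-h rise passed the test in both lines. It started from 0.575 FPKM in COLO858, and with nothing added to FPKM the differences were 3.90 and 3.17. CRYAB differed by 4.80 at 48 h, from a base of 0.265 FPKM in COLO858 and 250 FPKM in MMACSF. GPM6B differed by 2.01 at 48 h. APOD differed by -2.13 at 24 h, with the larger rise in MMACSF. The lines also differ in medium, seeding density, and starting level, and the part of these in the differences was not tested.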

How the results depend on the processing

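With 2 libraries per group, counts of called genes among the 8 moved with several settings, and the causes were not tested. With the replicate block, the counts went from 3 to 5 at 24 h and from 2 to 7 for 48 h against 24 h in COLO858, from 3 to 5 at 24 h in MMACSF, and from 3 to 6 and from 4 to 7 for the line differences at 24 h and 48 h. At 48 h against DMSO they went from 6 to 7 in COLO858, where CDH19 was added, and from 4 to 5 in MMACSF, likewise with CDH19. The block also raised the calls over all genes, to 23.2% higher and 21.8% lower at 24 h, 20.4% and 23.3% at 48 h, and 9.13% and 8.83% for 48 h against 24 h in COLO858. In MMACSF they were 13.1% and 13% at 24 h and 14.8% and 15.3% at 48 h, and for the line differences 8.98% and 8.64% at 24 h and 13% and 12.2% at 48 h. The numbers are not said to pair plates, and same-numbered libraries deviated together with r of 0.196 to 0.211 in COLO858 and 0.0628 to 0.113 in MMACSF over all genes tested, or 0.753 to 0.779 and 0.590 to 0.673 without small RNA genes. At a threshold of 0.05, 5 genes were called at 24 h in each line and 5 for 48 h against 24 h in COLO858. That last count was 1 with no minimum, with no trend, or with only the libraries compared. In MMACSF, 5 were called at 24 h with nothing added and 1 with only the libraries compared, and at 48 h 2 with no trend and 1 with only the libraries compared. Apart from the block, shares over all genes were not computed for the alternative settings or with a library left out. Those counts therefore describe the members alone.

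With 1 library left out in turn, 1 to 2 genes were called at 24 h and 3 to 5 at 48 h in COLO858, 1 for 48 h against 24 h, and in MMACSF 1 at 24 h and 0 to 1 at 48 h. The sign of values that were not called turned in some of these fits. CDH19 ranged from -0.072 to 0.35 at 24 h in COLO858 and from -0.15 to 0.22 for 48 h against 24 h in MMACSF, and GPM6B from -0.036 to 0.28 at 48 h in MMACSF. The line difference of CRYAB at 24 h ranged from -0.16 to 0.071, and it was 0.013 with median-ratio rescaling, 1.14 with 0.1 FPKM added, and 1.56 with nothing added. Rescaling to the sum without small RNA genes moved the median of all genes in COLO858 by 0.18 at 24 h and 0.21 at 48 h, and the line differences by 0.13 and 0.16. Over all settings, 974 log2 fold changes of these genes were compared with the main fits. Of these, 845 kept their direction and side of the threshold, 79 lost a call, 40 gained one, and 10 turned sign. The threshold of 0.05 reused the main fits without refitting, and 10 of the gained calls came from that setting.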
